A study of Mus musculus with 6 samples.

Results

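The 6 mature miRNAs described here are often chosen as stable references in vesicle and body fluid work: miR-191-5p, miR-425-5p, miR-423-3p, miR-423-5p, miR-103-3p and miR-107-3p. They were found by their mature identifiers, and these 6 of the 1966 mature miRNAs in the count table stood at 7 of its 2110 loci. The data were small RNA counts from extracellular vesicles, called exosomes in the labels, collected from the muscle of young mice (3 libraries) and of old mice (3 libraries). No strain, sex, exact age, genotype, muscle or treatment is given in the sources used here. The labels do not tell whether each library stands for its own mouse. The p-values therefore rest on differences between these 6 libraries alone, and those could be technical.

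A vesicle preparation holds an amount of RNA that is hard to know, so a miRNA measured in it by quantitative PCR is commonly divided by the signal of a reference miRNA from the same tube. That division is safe only if the reference is itself steady between the groups compared, and abundant enough to be measured with little error. A miRNA is cut from a hairpin whose 5′ and 3′ arms can each yield a mature strand. Its seed, bases 2 to 8, does most of the pairing with target messenger RNAs.

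The mature sequences are shown, 5′ to 3′ with the seed in capitals, because the members come in related pairs and because near-identical members are hard to count apart (RefSeq, GRCm38.p6).

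miR-191-5p (MIMAT0000221): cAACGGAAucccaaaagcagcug
miR-425-5p (MIMAT0004750): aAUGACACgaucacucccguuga
miR-423-3p (MIMAT0003454): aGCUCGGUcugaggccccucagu
miR-423-5p (MIMAT0004825): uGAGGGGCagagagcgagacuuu
miR-103-3p (MIMAT0000546): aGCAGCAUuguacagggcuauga
miR-107-3p (MIMAT0000647): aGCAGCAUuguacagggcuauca

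All 6 are 23 bases long, and whether the libraries captured them equally well was not tested. miR-103-3p and miR-107-3p share the seed GCAGCAU and differ at 1 of 23 positions (G22C, counted from the 5′ end with the base of miR-103-3p first). The other 4 have seeds of their own among these 6.

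The positions of the members pair them too (mm10). miR-191-5p (chromosome 9, 108568325 to 108568347) and miR-425-5p (chromosome 9, 108568789 to 108568811) both lie in exonic sequence of the transcript 4833445I07Rik, on its strand, with 384 bases between their hairpins. The 2 arms of Mir423 lie in an intron of Nsrp1 on chromosome 11, miR-423-3p at 77078086 to 77078108 and miR-423-5p at 77078122 to 77078144. miR-103-3p is made from 2 loci, Mir103-1 in an intron of Pank3 (chromosome 11, 35782447 to 35782469) and Mir103-2 in an intron of Pank2 (chromosome 2, 131288103 to 131288125). miR-107-3p lies in an intron of Pank1 (chromosome 19, 34820700 to 34820722). The Pank genes encode pantothenate kinases, the first enzymes of coenzyme A synthesis, and miR-103 and miR-107 are known as regulators of insulin sensitivity. None of the 7 loci overlaps another locus of the table.

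The libraries held 904892 to 1706396 counts. Old replicate 1, the shallowest, stood apart: miR-21a-5p, the most abundant miRNA, made up 35.4% of its counts and 49.0% to 52.9% of those of the remaining 5. Its muscle markers took 9.91%, against 4.61% to 6.26% elsewhere. Of 7 muscle marker miRNAs 6 were above 0, the exception being miR-486a-5p, whose locus overlaps another one. On the scaled levels defined below, miR-133a-3p (log2 difference 1.10), miR-499-5p (1.00), miR-1a-3p (0.72) and miR-133b-3p (0.39) were higher in old. Their ages did not overlap, as at 27.1% of all tested loci. The far more abundant miR-206-3p (mean 53103 CPM) was higher by 0.12, and its ages overlapped. No such value is given here for miR-208b-3p. Red blood cell markers (3 of 4 above 0) took 4.03% to 4.36% in young and 4.13% to 4.52% in old. Leukocyte markers (5 of 6 above 0) took 0.113% to 0.140% in young and 0.0917% to 0.111% in old. Of these, miR-155-5p was lower in old (log2 difference -0.80, on the scaled levels defined below). The others above 0 were higher: miR-146a-5p (0.76), miR-142a-5p (0.70), miR-223-3p (0.10) and miR-150-5p (0.06). Smooth muscle and fibroblast markers (4 of 4 above 0) took 2.81% to 3.11% in young and 3.59% to 4.36% in old. Here miR-143-3p (0.70), miR-145a-5p (0.42) and miR-199a-3p (0.20) were higher in old and miR-214-3p (-0.41) was lower. Of the nerve markers, miR-124-3p was above 0 and miR-9-5p was at 0, and the endothelial miR-126a-3p and miR-126a-5p and the liver miR-122-5p were at 0. All markers at 0 lie at loci that overlap another locus. What part these markers have in the results below was not tested.

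Together the 6 miRNAs took well under 1% of the counts. Their summed share was 0.666%, 0.575% and 0.662% in young replicates 1, 2 and 3, and 0.631%, 0.529% and 0.542% in old replicates 1, 2 and 3. The groups overlapped, with means of 0.634% ± 0.0516 and 0.567% ± 0.0554 (SD, n = 3 each; two-sided exact permutation p = 0.2, where 0.1 is the smallest possible). The widest 95% exact binomial interval of these shares, in old replicate 1, ran from 0.614% to 0.647%, and such intervals cover counting error only. All values are relative to the other counted miRNAs, so that fewer vesicles carrying a miRNA and fewer copies in each vesicle cannot be told apart.

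The 6 members differed widely in abundance. Levels are CPM, counts scaled to a common library size, with sizes set by TMM, a method that takes most miRNAs as unchanged. miR-191-5p was the highest, at rank 31 of the 310 mature miRNAs with a tested locus. miR-423-3p (rank 57), miR-425-5p (rank 66), miR-103-3p (rank 85) and miR-423-5p (rank 149) followed, and miR-107-3p did not pass the filter on low counts. Between neighbours in this order, the ranges of miR-423-3p (690 to 1391 CPM) and miR-425-5p (624 to 756 CPM) overlapped over the 6 libraries, and those of the other neighbours did not.

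**Figure D1:**
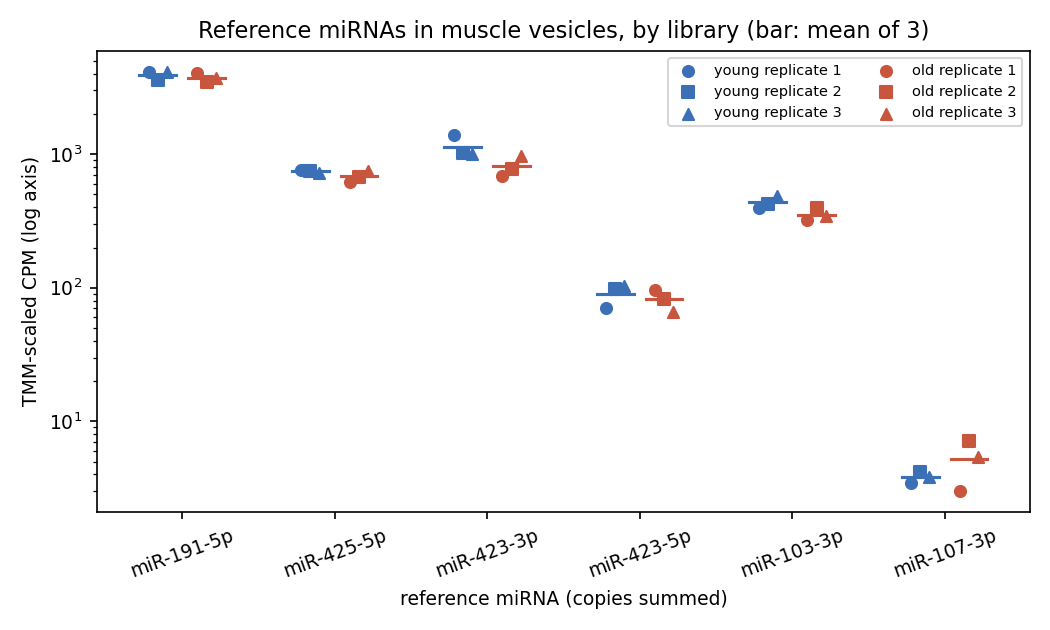
Level of each reference miRNA in each library, in TMM-scaled CPM on a log axis; points are libraries, shapes mark replicate numbers and bars are means of 3. miR-191-5p and miR-425-5p sit in tight groups of points, while miR-423-3p runs from 690 CPM in old replicate 1 to 1391 CPM in young replicate 1.

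The members made from one transcript, miR-191-5p and miR-425-5p, were the steadiest. miR-191-5p had 4084, 3598 and 4139 CPM in young replicates 1, 2 and 3 and 4013, 3440 and 3694 CPM in old replicates 1, 2 and 3. The groups overlapped, and in each age replicate 2 was the lowest library. The means were 3940 ± 298 CPM in young and 3716 ± 287 CPM in old (SD, n = 3 each). The highest library lay 1.20-fold above the lowest, and the SD of log2 CPM was 0.11 within young, within old and over all 6 libraries. miR-191-5p had 3983 to 6458 counts per library, from which counting alone would give an SD of 0.020.

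miR-425-5p had 756, 748 and 727 CPM in the young libraries and 624, 670 and 748 CPM in the old ones. On this TMM scale old replicate 3 fell inside the young range and the other 2 old libraries below it. The means were 744 ± 15.3 CPM and 681 ± 62.7 CPM (SD, n = 3 each). Its SD of log2 CPM was 0.030 within young, where counting alone gives 0.047 over the 6 libraries, and 0.13 within old. Over all 6 libraries it was 0.11, and 0.071 without old replicate 1.

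The arms of Mir423 were less even. miR-423-3p had 1391, 1020 and 1002 CPM in the young libraries and 690, 770 and 964 CPM in the old ones. The groups did not overlap, by the gap between 1002 and 964 CPM, and young replicate 1 was well above the rest. The means were 1138 ± 219 CPM and 808 ± 141 CPM (SD, n = 3 each), and the highest library was 2.02-fold above the lowest. The SD of log2 CPM was 0.26 within ages and 0.35 over all libraries, where counting alone would give 0.041.

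miR-423-5p, the rarer arm, had 71.0, 98.0 and 102.6 CPM in young and 96.7, 83.0 and 65.9 CPM in old. These groups overlapped (90.5 ± 17.1 and 81.9 ± 15.4 CPM, SD, n = 3 each), with the lowest library of all in old and the next lowest in young. Its SD of log2 CPM was 0.28 within ages and 0.26 over all libraries, against 0.14 from counting alone.

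miR-103-3p, with both loci summed, had 393, 426 and 485 CPM in young and 323, 392 and 343 CPM in old. The groups met without overlapping, at 393 CPM in young replicate 1 and 392 CPM in old replicate 2. The means were 435 ± 46.5 and 353 ± 35.4 CPM (SD, n = 3 each), with an SD of log2 CPM of 0.15 within ages and 0.21 over all libraries. Its 2 loci held 1655 and 1693 counts, and the ratio of Mir103-2 to Mir103-1 ran from 0.886 to 1.13 over the libraries. Both loci encode one mature sequence, so that they stand for 1 measurement.

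miR-107-3p had 5, 7 and 6 counts in the young libraries and 3, 10 and 7 counts in the old ones. Its SD of log2 CPM was 0.41 over all libraries, and counting alone would give 0.61, so that its steadiness could not be measured at this depth. It made up 0.876% of the counts of miR-103-3p and miR-107-3p in young (95% exact interval 0.520% to 1.38%). In old it made up 1.5% (0.920% to 2.31%), and the intervals overlap. They cover counting error only, and whether reads of these near-identical members were counted apart was not tested.

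Against other miRNAs, the tested members ranged from among the steadiest to near or past the middle. Among 310 mature miRNAs with a tested locus, ranked from the lowest SD of log2 CPM over the 6 libraries, miR-191-5p was at rank 5 and miR-425-5p at rank 7. miR-103-3p was at rank 48, miR-423-5p at rank 75 and miR-423-3p at rank 152, near the middle, with an SD of 0.35 against a median of 0.36. Among the 141 with at least 100 CPM the median SD was 0.29, and miR-423-3p was at rank 103 of these. With library totals in place of TMM, miR-191-5p was at rank 26 and miR-425-5p at rank 4 of 310. Without old replicate 1 they were at ranks 18 and 4, and miR-423-3p was at rank 71 without young replicate 1.

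**Figure D2:**
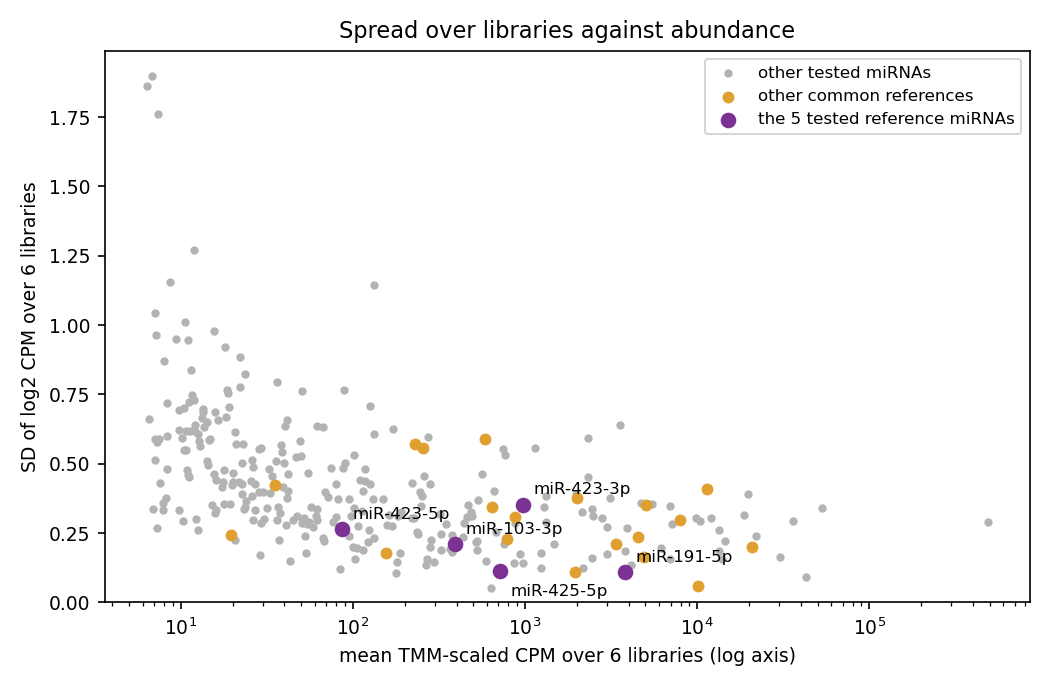
SD of log2 CPM over the 6 libraries (vertical) against mean TMM-scaled CPM (horizontal, log axis) for 310 mature miRNAs; large points are the 5 tested reference miRNAs and orange points 19 other common references. miR-191-5p and miR-425-5p lie near the lower edge at 0.11, and miR-423-3p lies at 0.35.

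Old and young libraries were compared to ask whether the references themselves shift with age. No tested locus of a member passed edgeR's quasi-likelihood test over all 347 tested loci, in which 4.32% were called (15 loci, 12 higher and 3 lower in old, the latter 0.865%). With old replicate 1 left out the count was 54 in place of 15 (15.6%; 24 higher and 30 lower), with old replicate 2 left out it was 5, and leaving out any of the other 4 libraries gave counts between these. Of the 6 member loci, 1 had an unadjusted p below 0.05, beside 22.5% of all tested loci. DESeq2 called 0 of the 6, beside 7.85% of the 293 loci to which it gave an adjusted p (14 higher and 9 lower in old). The log2 fold change was below 0 at each of the 6 (median -0.20), where 47.6% of all tested loci were negative and their median was 0.04. These loci are not 6 separate measurements, since Mir103-1 and Mir103-2 encode one sequence and the arms of Mir423 come from one hairpin. At 2 of the 6, miR-423-3p and miR-103-3p at Mir103-1, the groups did not overlap, both lower in old. Over all tested loci this was so at 27.1%, and at 13.0% with old lower.

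The largest of these differences was that of miR-423-3p, at 0.711 times the young level (log2 fold change -0.49 ± 0.19, SE; 95% interval 0.539 to 0.936 times; adjusted p = 0.139 by edgeR). The interval of the single locus excluded no change, but the value did not pass over all loci. Leaving out young replicate 1 gave -0.35. Leaving out old replicate 3 gave -0.67, at the threshold itself (adjusted p = 0.05001, with 6.34% of all loci called). With library totals that leave out miR-21a-5p it was -0.61 and passed (adjusted p = 0.0339), a setting in which 11% of all loci were called (13 higher and 25 lower).

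miR-103-3p had log2 fold changes of -0.34 ± 0.19 at Mir103-1 (adjusted p = 0.299) and -0.26 ± 0.20 at Mir103-2 (adjusted p = 0.511, both by edgeR). miR-191-5p was at 0.943 times the young level with a 95% interval of 0.748 to 1.19 times (adjusted p = 0.812). miR-425-5p was at 0.915 times with an interval of 0.720 to 1.16 times (adjusted p = 0.739). For these 2 steadiest members, age differences inside these intervals are not excluded. miR-423-5p was at 0.901 times with the wider interval of 0.633 to 1.28 times (adjusted p = 0.799).

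**Figure D3:**
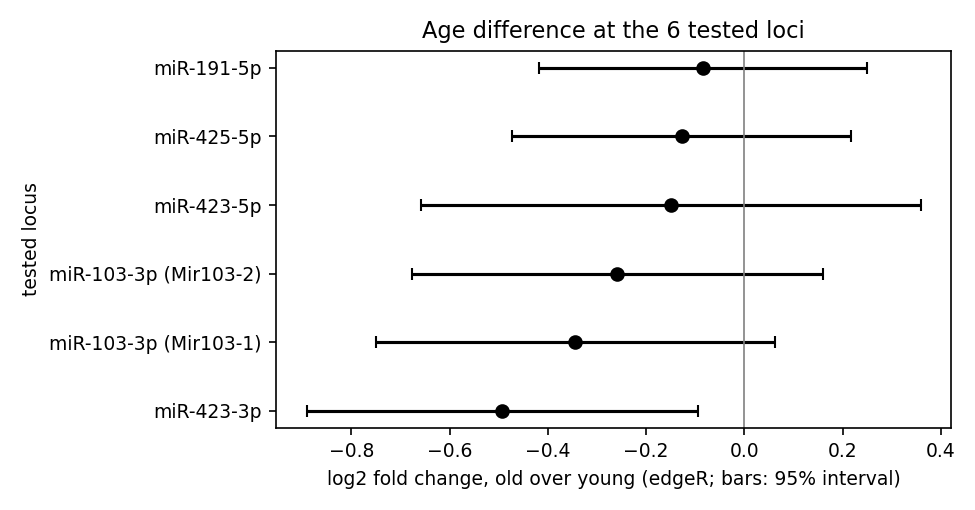
Log2 fold change of old over young at the 6 tested loci, from edgeR's fit of all 347 loci; bars are 95% intervals and the grey line is no difference. All 6 points lie below 0, and the bar of miR-423-3p, from -0.89 to -0.095, is the one that does not reach it.

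Ratios between members do not depend on how libraries are scaled, and they separated the pairs further. The ratio of miR-191-5p to miR-425-5p had the lowest SD of all 15 pairs. It was 5.40, 4.81 and 5.69 in young replicates 1, 2 and 3 and 6.43, 5.13 and 4.94 in old replicates 1, 2 and 3. The SD of its log2 value was 0.15, and the mean log2 ratio differed by 0.047 between ages (exact permutation p = 0.8, 0.857 adjusted over the 15 pairs). The next lowest SDs were those of miR-103-3p to miR-425-5p (0.18) and of miR-191-5p to miR-103-3p (0.22).

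The 2 arms of Mir423, although cut from one hairpin, had the highest SD of the 10 pairs that leave out miR-107-3p, at 0.52. Their ratio, miR-423-3p over miR-423-5p, was 19.5, 10.4 and 9.75 in young and 7.10, 9.24 and 14.5 in old. Young replicate 1 was highest and old replicate 1 lowest, and the groups overlapped (exact permutation p = 0.5, 0.75 adjusted). The ratio of miR-423-3p to miR-425-5p did not overlap between ages, at 1.84, 1.36 and 1.38 in young and 1.11, 1.15 and 1.29 in old. Its exact permutation p was 0.1, the smallest possible, and 0.5 adjusted over the 15 pairs. Without overlap and with the same p were 2 more of the 15, the ratios of the sparse miR-107-3p to miR-103-3p and to miR-423-3p, both higher in old. By exact permutation 0 of the 15 pairs passed 0.05, adjusted or not, and 3 against 3 libraries cannot go below 0.1. The 15 ratios share members, and no share over ratios of other miRNAs is given here to set beside the pairs without overlap.

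Averaging the SDs of a member's log2 ratios to the other 5 gives a single figure. It is low for members whose ratios to the rest vary little. It was 0.27 for miR-425-5p, 0.29 for miR-103-3p and 0.30 for miR-191-5p. It was higher for miR-423-5p (0.39), miR-423-3p (0.41) and miR-107-3p (0.52). Without miR-107-3p the figures of the first 3 were 0.23, 0.25 and 0.25, and miR-423-5p and miR-423-3p had 0.34 and 0.36.

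The opposite arms of the other hairpins had fewer counts over all libraries than the members they are cut with, least clearly at Mir107. miR-191-3p had 303 counts over all libraries, 0.949% of those of miR-191-5p, and miR-425-3p had 376, or 6.27% of miR-425-5p. miR-423-5p stood at 8.73% of miR-423-3p. The 5p arms of Mir103-1, Mir103-2 and Mir107 had 4, 6 and 10 counts in all and were not tested. A count of 10 for miR-107-5p beside 38 for miR-107-3p gives no firm order for that hairpin in single libraries, where either arm had 10 counts or fewer.

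All libraries were then scaled to each member, to describe what it would do as a normalizer. For a single member, the shift relative to TMM is its own log2 level on the TMM scale, centred. These shifts and their p-values therefore restate the levels given above and are no separate support. A reference with less in old libraries moves every other miRNA up in old, and a noisy one widens the spread within ages. Relative to TMM, miR-191-5p set the scale of old libraries lower by 0.085 on the log2 scale, 1.06-fold (exact permutation p = 0.4). miR-425-5p lowered it by 0.13 (1.10-fold, p = 0.2, exact permutation). miR-103-3p lowered it by 0.30 (1.23-fold) and miR-423-3p by 0.49 (1.41-fold), each with an exact permutation p of 0.1, the smallest possible. miR-423-5p lowered it by 0.14 with library shifts from -0.37 to 0.27, and miR-107-3p raised it by 0.36 with shifts from -0.52 to 0.73.

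**Figure D4:**
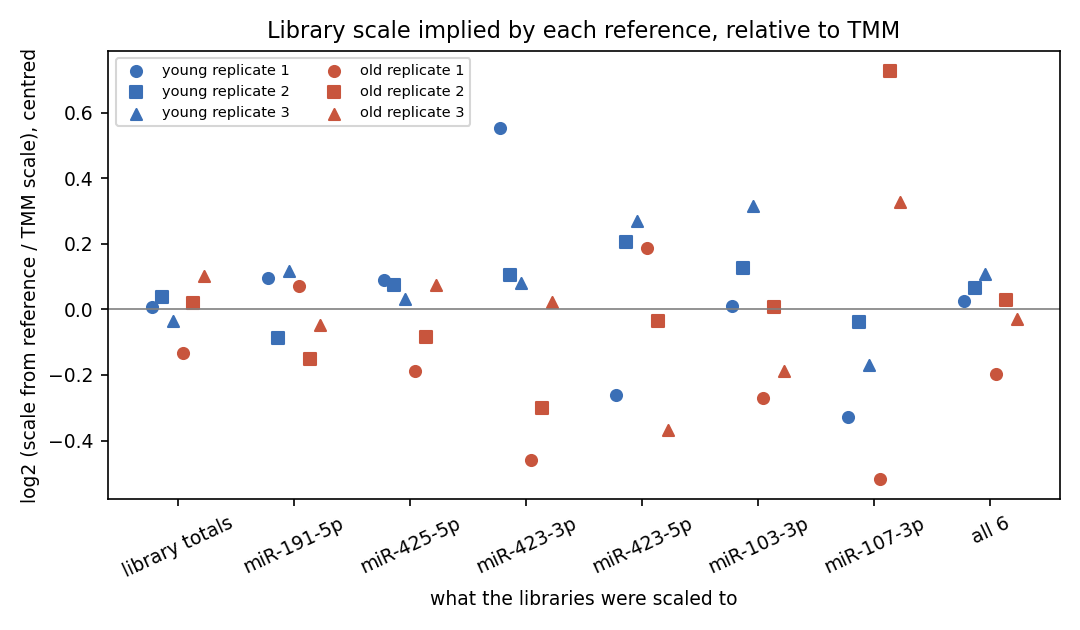
Log2 ratio of the library scale set by each reference to the TMM scale, centred on 0, for library totals, each member and the geometric mean of all 6; points are libraries. For a single member the points are its own log2 levels on the TMM scale, centred. The points of miR-191-5p stay between -0.15 and 0.12, those of miR-423-3p run from -0.46 to 0.55, and those of miR-107-3p from -0.52 to 0.73.

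The spread within ages of all tested loci, members included, was then taken under each scaling. A member's own log2 level is subtracted from every locus, so its own spread enters this figure. The figure is therefore no separate support. The median SD of log2 values within ages over the 347 tested loci was 0.326 with TMM, 0.342 with library totals and 0.324 when libraries were scaled to miR-191-5p alone. It was 0.337 with miR-425-5p and 0.348 with miR-103-3p. With miR-423-3p, miR-423-5p and miR-107-3p it was 0.402, 0.437 and 0.542. As a single reference, miR-191-5p thus left the median within-age spread of the tested loci no wider than TMM did, and miR-107-3p left it widest of the 6.

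The choice of member changed how many age differences edgeR called. Scaled to miR-191-5p, 11 loci passed (9 higher and 2 lower in old, 3.17% of 347), and all 11 were among the 15 called with TMM. The 4 lost were miR-365-3p, miR-320-5p, miR-6236 and miR-6239. Scaled to miR-425-5p, 9 passed, all higher (2.59%), of which 8 were shared with TMM. Scaled to miR-103-3p, 26 passed (7.49%), and scaled to miR-423-3p, 36 (10.4%). All of these were higher in old, and 12 of each set were shared with TMM. In these 2 settings the median log2 fold change of all tested loci moved from 0.04 to 0.34 and 0.50, so that a locus in the middle of the table read as higher in old. Scaled to miR-423-5p or miR-107-3p, 0 loci passed edgeR's adjusted threshold, with 38 and 26 at an unadjusted p below 0.05, against 78 with TMM.

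The geometric mean of all 6 members lowered the scale of old libraries by 0.13 (1.10-fold, exact permutation p = 0.2) and moved the median log2 fold change to 0.17. With it 12 loci passed, all higher in old (3.46%). Of these, 11 were shared with the 15 called with TMM. The 3 miRNAs called lower with TMM were lost: miR-155-5p, induced in activated immune cells, was at -0.67 (adjusted p = 0.0609 by edgeR), miR-351-5p at -0.77 (0.0609) and miR-365-3p at -0.86 (0.0600). miR-320-5p was lost as well, at 1.75 (0.0584), and miR-378c, of the miR-378 family, was gained at 0.68 (adjusted p = 0.0406 by edgeR). Leaving the sparse miR-107-3p out of the mean, a set chosen after its counts were seen, gave 36 loci, 34 higher and 2 lower (10.4%), with a shift of old libraries of -0.23. The mean of miR-191-5p, miR-103-3p and miR-425-5p, also chosen after the values were seen, gave 18 loci, 16 higher and 2 lower (5.19%).

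**Figure D5:**
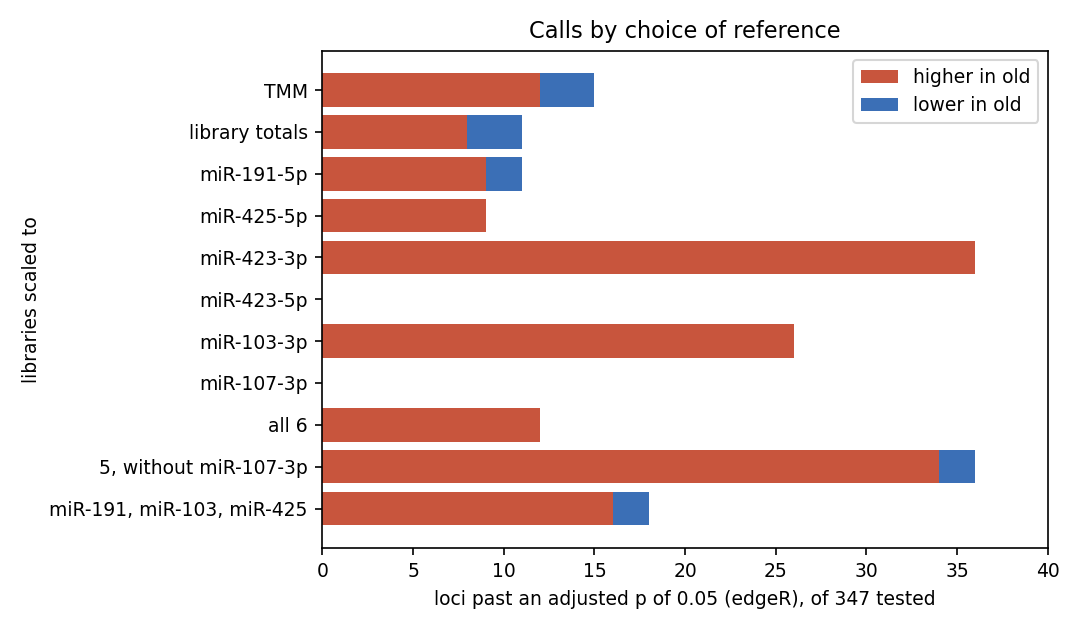
Number of loci past an adjusted p of 0.05 in edgeR's test, of 347, under each scaling; bar parts are loci higher and lower in old. TMM gives 12 and 3, miR-191-5p 9 and 2, miR-423-3p 36 and 0, and miR-423-5p and miR-107-3p give none.

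Among 20 other miRNAs often used as references, 19 had tested loci (24 loci), and miR-24-3p was listed at 0 because both its loci overlap another locus. None of the 24 loci rose or fell by edgeR's test over all loci. Unadjusted, 6 of the 24 had a p below 0.05, beside 22.5% of all tested loci. DESeq2 called 1, miR-30c-5p at Mir30c-2, beside 7.85% of the loci it adjusted. Their log2 fold changes ran from -0.85 to 0.50 with a median of 0.04, and 8 of the 24 did not overlap between ages, 4 in each direction, beside 27.1% of all tested loci. The steadiest of them were miR-23a-3p (10172 CPM, SD of log2 CPM 0.059, rank 2 of 310), miR-151-5p (1951 CPM, SD 0.11, rank 6) and miR-16-5p (4890 CPM, SD 0.16, rank 25). The least steady were miR-320-3p (SD 0.59), miR-30c-5p (0.57) and miR-484 (0.56). miR-23a-3p, which is commonly set against the red blood cell miR-451a to detect lysed red cells, was thus steadier over these libraries than any of the 6 members, a comparison that ranks measured spreads without a test.

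Among 137 other miRNAs with at least 100 CPM, a few had ratios to the 6 members that varied little. The SD of the log2 ratio to the geometric mean of the members, over the 6 libraries, was lowest for miR-140-5p (0.078), miR-31-5p (0.081), miR-15b-5p (0.098), miR-23a-3p (0.10) and miR-181b-5p (0.11). The median over the 137 was 0.31. A low value does not by itself show movement with the members, since a flat miRNA can have it too. miR-23a-3p had an SD of 0.059 for its own log2 CPM, and its log2 ratio to the members was higher in old by 0.17. All these points share the libraries and their depth, and the mean of the members carries the counting error of miR-107-3p. Against the mean without miR-107-3p, miR-181b-5p was closest, at 0.047, with 1385, 1277 and 1336 CPM in young and 1163, 1119 and 1158 CPM in old.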

How the data were processed

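Per the file headers, the deposited table holds raw read counts at each mature miRNA locus, made by the authors with featureCounts version 2.0.6 with no option for strand, overlapping features or multi-mapping reads. Per the submitters' processing notes, reads were aligned with BWA to mm10. Aligner settings and trimming steps: not given in the sources used here. Reads of identical copies can therefore be split between loci, and a read over overlapping loci is not counted. Group and replicate came from sample titles.

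Loci were named by exact coordinates from RefSeq mature miRNAs (1734 loci), and otherwise from another copy or by position in GENCODE M21 with a tolerance of 3 bases (364 loci). The 12 loci left unnamed held 0.0011% of the counts. Age differences come from the quasi-likelihood test of edgeR 4.0.16 (in R 4.3.3) after filterByExpr (minimum count 10, total 15) and TMM, two-sided, with Benjamini-Hochberg adjustment over 347 loci and a threshold of 0.05. Standard errors and 95% intervals came from the coefficient and its F statistic. Log2 values per library carry a prior count of 0.5. Single values were compared by exact permutation tests. The SD from counting alone is the Poisson expectation.

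All members, their opposite arms, the other references with the 3 lowest and 3 highest SDs, the 5 miRNAs closest to the members' mean, and calls lost or gained under scaling to the mean of all 6 members are named; those under other scalings are given as counts, save for miR-191-5p. Members and lists were chosen with earlier results of these data known. Alternatives were other scalings, filters and tools (DESeq2 version 1.42.0), summed copies, a replicate block and leaving out each library.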

Additional observations from a re-analysis of the deposited data

How the results depend on the processing

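Over all tested loci the count called, 15, was 38 with library totals without miR-21a-5p, 26, 0, 36, 0 and 9 when scaled to miR-103-3p, miR-107-3p, miR-423-3p, miR-423-5p and miR-425-5p, 36 when scaled to 5 members without miR-107-3p, and 23 with DESeq2. The split of 12 higher and 3 lower was 13 and 25 with library totals without miR-21a-5p, 14 and 9 with DESeq2, and 24 and 30 without old replicate 1. Leaving out 1 library gave 5 (without old replicate 2) to 54 (without old replicate 1), with 6, 7 and 8 without young replicates 1, 2 and 3. The replicate block gave 6. The numbers in the titles share no stated source, and same-numbered libraries had deviations correlated at -0.134, 0.024 and -0.146, so that the block was not taken as a pairing; it changed no call of a member.

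The negative direction of the 6 tested loci (5 members; miR-107-3p, not tested, was higher in old by 0.37 with TMM) held with TMM, DESeq2, library totals, other filters, summed copies, the replicate block and without any 1 library, and turned positive under these scalings to members. Scaled to miR-423-3p, the log2 fold changes were 0.13 and 0.21 for miR-103-3p at Mir103-1 and Mir103-2, 0.33 for miR-423-5p, 0.41 for miR-191-5p and 0.35 for miR-425-5p. Scaled to miR-103-3p, they were 0.17 for miR-423-5p, 0.047 for miR-103-3p at Mir103-2, 0.22 for miR-191-5p and 0.17 for miR-425-5p. Scaled to miR-423-5p, miR-191-5p had 0.046 and miR-425-5p 0.027, and scaled to miR-425-5p, miR-191-5p had 0.054. The mean of 6 gave 0.056 for miR-191-5p and 0.0017 for miR-425-5p, the mean of 5 gave 0.15, 0.10 and 0.084 for miR-191-5p, miR-425-5p and miR-423-5p, and the mean of 3 gave 0.091, 0.041 and 0.028. miR-423-3p passed with library totals without miR-21a-5p (-0.61); the cause was not tested.

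The SD of miR-191-5p was 0.17 with library totals. That of miR-425-5p was 0.074 with library totals, 0.21 with totals without miR-21a-5p, and 0.071 to 0.12 with 1 library left out, lowest without old replicate 1. The share of the members stayed lower in old under each alternative. Taken of all counts, old minus young was -0.067 percentage points (exact permutation p = 0.2). Taken of counts without miR-21a-5p it was -0.24 points (exact permutation p = 0.1, the smallest possible). The 3 libraries a group limit every test, and counting error limits miR-107-3p.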
